A study of Homo sapiens with 12 samples.

Results

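MHC class I antigen presentation was followed through 9 genes in A375, an established human melanoma cell line. HLA-B, HLA-C and HLA-E encode heavy chains, B2M the light chain, TAP1 and TAP2 the peptide transporter, TAPBP the loading factor tapasin, PSMB9 an immunoproteasome subunit and NLRC5 a transcriptional activator of the pathway. The genes were chosen by symbol out of 56609 in the table of counts, and 9 of 9 passed the low-count filter that left 21698 genes for testing. MAPKAPK2 encodes MK2, a kinase activated by stress through p38, and the study's question is whether its loss alters what BET bromodomain inhibitors do to the cells.

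RNA was sequenced from 4 groups of 3 libraries. A375 cells were either wild type or carried a CRISPR/Cas9 knockout of MAPKAPK2, and cells of each genotype received DMSO or the BET inhibitor JQ1 at 500 nM for 48 h. The sample titles call the DMSO groups untreated, and the treatment field was followed. The labels do not give whether the knockout cells were 1 clone or a pool, nor whether replicates were separate cultures. The p-values therefore measure only the spread between these libraries, which may be technical.

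Class I molecules display peptides cut from proteins inside the cell to CD8+ T cells. The proteasome, in its constitutive or immunoproteasome form, cuts the proteins, and the TAP1-TAP2 transporter carries the peptides into the endoplasmic reticulum. Tapasin bridges the transporter and the heavy chain, and a loaded heavy chain travels to the surface with beta-2-microglobulin. NLRC5 and interferon-driven factors such as IRF1 act on many of these promoters. Melanomas are known to lose parts of the pathway, and a cell without B2M cannot display classical class I molecules.

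The libraries held between 25316899 and 34594295 estimated counts. Values are given as CPM, counts per 1000000 of the TMM-scaled library, with SD over 3 libraries. MAPKAPK2 lay between 87.9 and 119.7 CPM in the 6 wild-type libraries and between 11.1 and 15.7 CPM in the 6 knockout libraries, with no overlap. SOX10, a transcription factor of the melanocyte lineage, averaged 500.2 CPM and MITF, the melanocyte master regulator, 35.4 CPM. The pigment genes PMEL, MLANA, TYR and DCT each averaged under 1 CPM over all libraries. PMEL averaged 1.09 CPM in wild-type JQ1 and 1.18 in knockout JQ1, against 0.513 and 0.335 in the DMSO groups. Of 7 leukocyte markers only CD68, which is not restricted to leukocytes, averaged 1 CPM or more; the list summed to 14.8 to 17.2 CPM in wild-type DMSO, 14.3 to 16.4 in wild-type JQ1, 10.4 to 16.8 in knockout DMSO and 9.25 to 10.0 in knockout JQ1. MS4A1 was at 0 in every library. The 4 fibroblast markers summed to 15.7 to 17.4 CPM in wild-type DMSO and 4.73 to 5.75 in wild-type JQ1, and to 12.8 to 14.4 and 3.29 to 4.02 in the knockout groups. The part of these markers in the results was not tested. The libraries came from an established melanoma line, so these sums are read as RNA levels and not as numbers of fibroblasts or leukocytes. PDGFRB was the highest of the 4 fibroblast markers, at 10.4 CPM in wild-type DMSO and 3.92 in wild-type JQ1.

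Knockout JQ1 replicate 3 stood apart from its replicates. Its chi-square per degree of freedom against them was 26.1 and 27.49, against 3.35 to 7.64 in every other pair of replicates. It also held the largest share of counts in 4 abundant noncoding RNAs (RMRP, RN7SK, RN7SL1 and RN7SL2), 14.6% against at most 12.3% elsewhere. Fold changes of the 9 genes that involve knockout JQ1 cells are given with and without it. Other fold changes, and counts of calls with JQ1 by gene group, are given without it where its removal changed a call or moved a value by over 1.5 times.

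The pathway did not move as 1 block under JQ1. HLA-C and TAP1 rose and TAP2 and TAPBP fell in both genotypes. HLA-B passed the test in knockout cells only, but the difference of its responses between genotypes did not pass (0.13, edgeR adjusted p 0.701). In wild-type cells 2 of the 9 genes passed an adjusted p of 0.05 upward and 2 downward, against 16.9% and 16.2% of all tested genes. In knockout cells 3 passed upward and 2 downward, against 16.7% and 17.8%. JQ1 moved 33.1% of all tested genes in wild type and 34.4% in knockout, so these counts do not set the 9 genes apart from the rest. Groups did not overlap for 5 of the 9 genes in wild type (50.4% of all tested genes) and 6 in knockout (42.3%). Knocking out MAPKAPK2 went with higher HLA-B and HLA-C in DMSO and higher HLA-B under JQ1. These were 2 of 9 genes against 3.47% of tested genes higher in DMSO, and 1 of 9 against 3.01% under JQ1; none of the 9 was lower, against 4.44% and 5.56%. At an unadjusted p under 0.05, by edgeR, 3 of the 9 genes differed in DMSO and 3 under JQ1, beside 19.7% and 20.7% of all tested genes. The genotypes did not overlap for 3 of the 9 genes in DMSO (29.6% of all tested genes) and 4 under JQ1 (23.1%). With knockout JQ1 replicate 3 left out, the calls with JQ1 were 3 higher and 2 lower in wild type and 2 higher and 3 lower in knockout, and those between genotypes were 3 higher in DMSO and 1 higher and 1 lower under JQ1.

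**Figure D1:**
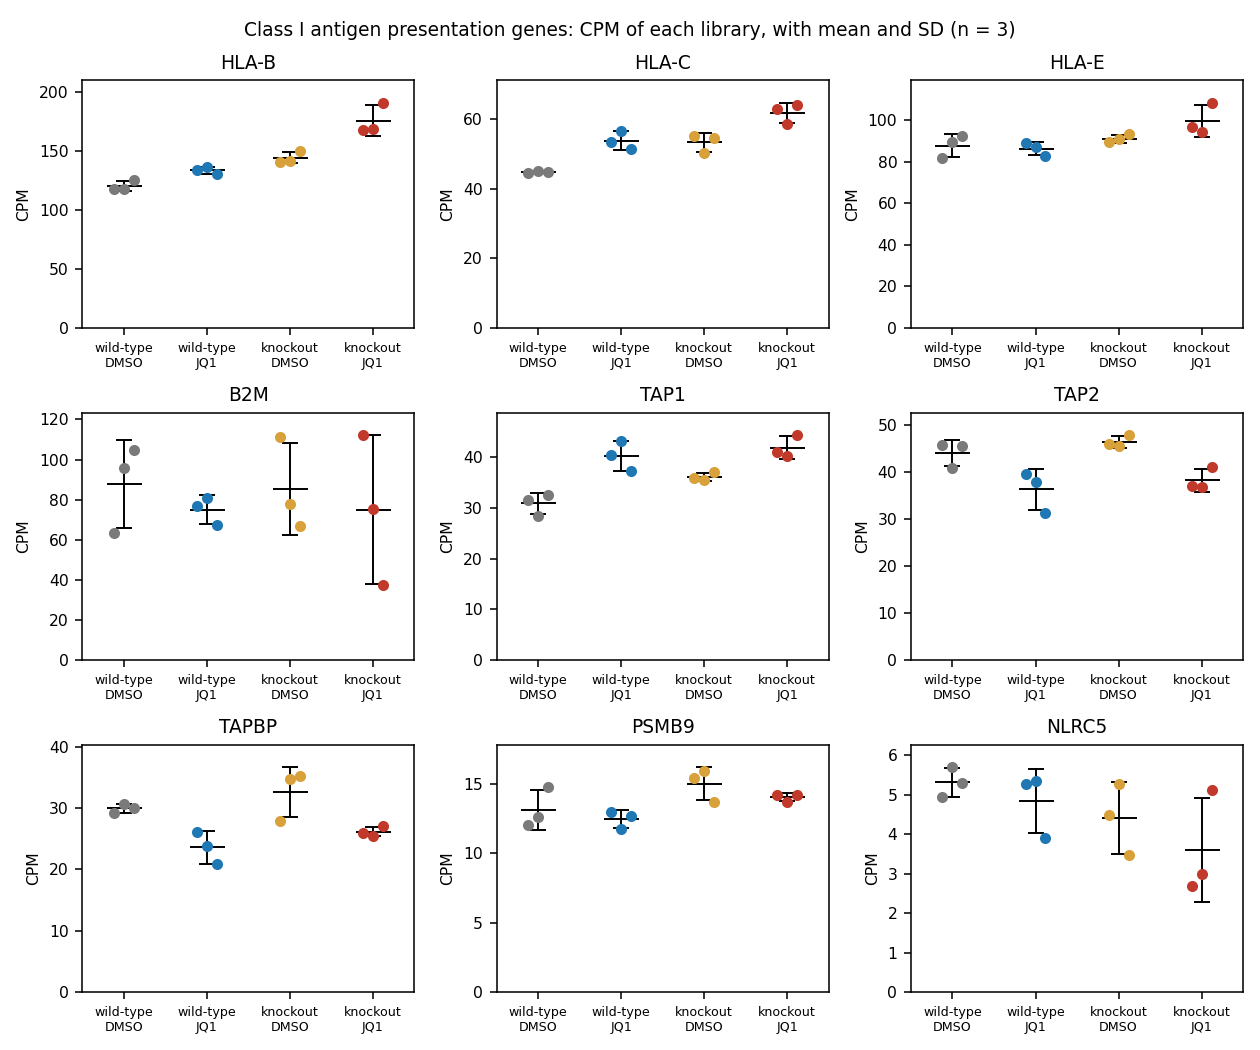
CPM of the 9 genes on the y axes in each of the 12 libraries (points), with the mean and SD of 3 libraries (bars), for wild-type and knockout cells in DMSO and JQ1. HLA-B climbs from 117 to 125 CPM in wild-type DMSO to 168 to 191 CPM in knockout JQ1, whereas the B2M points of 1 group span up to 37.7 to 112 CPM.

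HLA-B encodes a classical, highly polymorphic heavy chain and lies on chromosome 6 (GRCh38, chr6:31269491-31357188, minus strand). HLA-C, a neighbouring classical heavy chain that is also a ligand of natural killer cell receptors, lies at chr6:31268749-31272130 on the same strand, where the annotated span of HLA-B overlaps it. Because both were called higher with JQ1 in the knockout and in the knockout in DMSO, the 250 bases before each start site are shown, from RefSeq (GRCh38.p14, minus strand, chr6:31357180-31357429 and chr6:31272093-31272342). Capitals mark CCAAT boxes, searched as CCAAT on both strands.
HLA-B: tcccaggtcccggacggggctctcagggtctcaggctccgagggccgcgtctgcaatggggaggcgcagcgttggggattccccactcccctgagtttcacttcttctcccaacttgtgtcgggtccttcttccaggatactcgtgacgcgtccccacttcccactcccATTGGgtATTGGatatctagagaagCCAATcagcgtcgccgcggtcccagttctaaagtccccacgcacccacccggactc
HLA-C: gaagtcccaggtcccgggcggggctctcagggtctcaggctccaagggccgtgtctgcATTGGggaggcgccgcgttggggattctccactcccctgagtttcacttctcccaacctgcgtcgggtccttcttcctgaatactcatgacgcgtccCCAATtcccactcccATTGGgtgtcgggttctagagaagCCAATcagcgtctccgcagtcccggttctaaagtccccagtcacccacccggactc
The HLA-B window held 3 CCAAT boxes and the HLA-C window 4, and 32.0% of 35116 RefSeq windows of this length held at least 1. Neither window held an exact match to the patterns GAAANNGAAA (interferon response element core), GGGANTTNCC (NF-kappaB), TTCNNNGAA (interferon gamma activated site) or TGACGNNA (X2-type core). Only these letters were searched, so a site that departs from them by a base would be missed. The lack of a match therefore does not show that a window lacks such sites.

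HLA-B stood at 117, 118 and 125 CPM in the wild-type DMSO libraries and at 134, 136 and 130.0 CPM in wild-type JQ1. Knockout cells held 141, 142 and 149 CPM in DMSO and 168, 168 and 191 CPM in JQ1. The 4 groups did not overlap: each knockout library lay above each wild-type library, and within each genotype JQ1 lay above DMSO. The log2 fold change with JQ1 was 0.15 in wild type (SE 0.06, edgeR adjusted p 0.0646), which did not pass, and 0.29 in knockout (SE 0.06, adjusted p 0.00163), which did. In the fit without knockout JQ1 replicate 3, these were 0.15 (adjusted p 0.011) and 0.22 (adjusted p 0.00203), so that the wild-type change passed too once that library left the shared estimate of spread. Of 24 alternatives, 8 called the wild-type change, DESeq2 (0.16, adjusted p 0.0312) and the heavy-chain sum among them. The other 16 did not, and the lowest log2 fold change was 0.0223.

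Between genotypes HLA-B was higher in the knockout by 0.26 in DMSO (SE 0.06, adjusted p 0.0123) and by 0.40 under JQ1 (SE 0.06, adjusted p 0.000555), which is a rise of 19.9% and of 31.6%. The DMSO call was marginal: it was lost without wild-type DMSO replicate 1 (adjusted p 0.0513), wild-type DMSO replicate 2 (0.0521) or knockout DMSO replicate 3 (0.0525). The call under JQ1 held without knockout JQ1 replicate 3 (0.33, adjusted p 0.000329).

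HLA-C was at 44.4, 45.0 and 44.8 CPM in wild-type DMSO and at 53.3, 56.7 and 51.5 CPM in wild-type JQ1. In the knockout it was at 55.3, 50.2 and 54.6 CPM in DMSO and at 63.0, 58.6 and 63.9 CPM in JQ1. Wild-type DMSO was the low group, knockout JQ1 the high one, and the other two overlapped. JQ1 raised HLA-C by 0.27 in wild type (SE 0.06, adjusted p 0.00412) and by 0.21 in knockout (SE 0.06, adjusted p 0.0147). The knockout call was lost without knockout DMSO replicate 2 (0.17, adjusted p 0.081) and held without knockout JQ1 replicate 3 (0.19, adjusted p 0.0263). The knockout was higher than wild type by 0.25 in DMSO (SE 0.06, adjusted p 0.02) and stood at 0.20 under JQ1 (SE 0.06, adjusted p 0.06), short of the threshold, and at 0.18 (adjusted p 0.0865) without knockout JQ1 replicate 3. Of the 6 DMSO libraries, leaving out any but knockout DMSO replicate 2 ended the DMSO call (adjusted p 0.0598 to 0.0749). DESeq2 called the difference under JQ1 (0.21, adjusted p 0.0241), and so did the fit without knockout JQ1 replicate 2 (0.24, adjusted p 0.0464).

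HLA-E, a heavy chain with little polymorphism that presents leader peptides of other class I chains to natural killer cells, lies at chr6:30489467-30494205 on the plus strand. Its wild-type libraries were at 81.6, 89.3 and 92.1 CPM in DMSO and at 89.1, 86.8 and 82.8 CPM in JQ1. Knockout libraries were at 89.3, 90.6 and 93.2 CPM in DMSO and at 96.6, 94.0 and 108 CPM in JQ1. All but the knockout JQ1 group overlapped, and that group lay above the others. The log2 fold change with JQ1 was -0.02 in wild type (95% interval -0.16 to 0.12, adjusted p 0.823) and 0.13 in knockout (-0.01 to 0.27, adjusted p 0.144), which was 0.07 (adjusted p 0.414) without knockout JQ1 replicate 3. The knockout differed from wild type by 0.05 in DMSO (adjusted p 0.732) and by 0.21 under JQ1 (adjusted p 0.0667). DESeq2 (0.22, adjusted p 0.0259) and the fit without knockout JQ1 replicate 2 (0.25, adjusted p 0.0498) put the last value past the threshold, and without knockout JQ1 replicate 3 it was 0.14 (adjusted p 0.137).

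Reads of the class I heavy chains are hard to divide among near-identical genes, and the alleles of a cell line can differ from the reference transcripts, so the single-gene values carry that uncertainty. The summed counts of 6 class I heavy-chain genes, HLA-B, HLA-C and HLA-E among them, do not depend on how reads were divided within the sum. The sum rose with JQ1 by 0.27 in wild type (SE 0.06, adjusted p 0.00238) and by 0.35 in knockout (SE 0.06, adjusted p 0.000245). The knockout stood 0.14 above wild type in DMSO (adjusted p 0.182), which did not pass, and 0.23 above it under JQ1 (SE 0.06, adjusted p 0.0249). Without knockout JQ1 replicate 3, an alternative chosen after seeing the data, these 4 values were 0.27, 0.29, 0.14 and 0.16, and the difference in DMSO then passed (adjusted p 0.0453), as did that under JQ1 (adjusted p 0.0427). HLA-F was at 2.04 to 3.49 CPM over all libraries and passed in no comparison.

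B2M encodes beta-2-microglobulin, the light chain shared by all class I molecules, and lies at chr15:44711487-44718877 on the plus strand. Its wild-type libraries were at 63.2, 95.6 and 105 CPM in DMSO and at 76.9, 81.0 and 67.3 CPM in JQ1. Knockout libraries were at 111, 78.0 and 66.8 CPM in DMSO and at 112, 75.1 and 37.7 CPM in JQ1. Every pair of groups overlapped, and knockout JQ1 alone spanned most of the range. The log2 fold change with JQ1 was -0.23 in wild type (95% interval -0.85 to 0.39, adjusted p 0.597) and -0.19 in knockout (-0.82 to 0.43, adjusted p 0.665). The knockout differed from wild type by -0.04 in DMSO (-0.66 to 0.58, adjusted p 0.962) and by -0.00445 under JQ1 (-0.63 to 0.62, adjusted p 0.997). With knockout JQ1 replicate 3, the library with the lowest B2M, left out, the knockout response was 0.14 (adjusted p 0.689) and the difference under JQ1 was 0.32 (adjusted p 0.411). Changes of B2M within these intervals remain compatible with the data, so the lack of a call does not show that B2M was unchanged.

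B2M varied more between replicates than nearly all genes compared. The SD of log2 CPM within groups was 0.49 for B2M and 0.32 for NLRC5, against a median of 0.11 over the 11251 genes that averaged 5 CPM or more. Only 35 of those genes (0.311%) had a larger spread than B2M, and 139 (1.24%) a larger spread than NLRC5. NLRC5 itself averaged 4.55 CPM, under the limit of 5 CPM, so it was set against genes with more counts, and B2M was not set against genes of its own level alone. HLA-C (0.06), HLA-B (0.07), HLA-E (0.08) and TAP1 (0.08) lay below the median, TAP2 (0.11), TAPBP (0.13) and PSMB9 (0.10) near it.

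**Figure D2:**
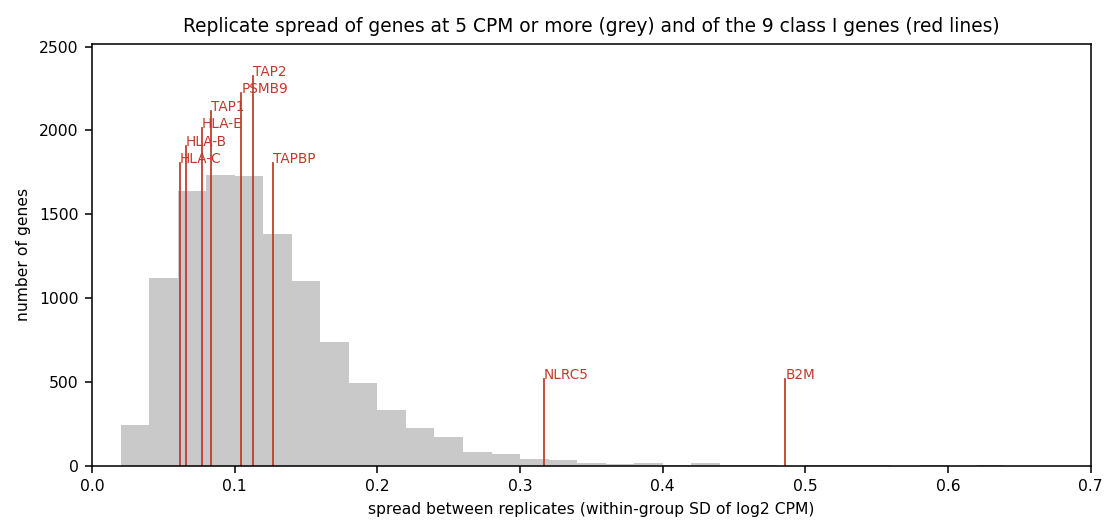
Number of genes (y axis) by their within-group SD of log2 CPM (x axis) for the 11251 genes that averaged 5 CPM or more (grey bars), with the 9 class I genes as red lines. B2M at 0.49 and NLRC5 at 0.32 lie in the right tail, NLRC5 having a mean below that of the genes in the bars, and the other 7 genes lie at or below 0.13.

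TAP1 and TAP2 encode the subunits of the peptide transporter. TAP1 lies at chr6:32845209-32853978 and TAP2 at chr6:32821833-32838780, both on the minus strand. PSMB9, which encodes the catalytic beta-1i subunit that replaces PSMB6 in the immunoproteasome, is read in the opposite direction from a start 488 bases from the nearer of the RefSeq starts of TAP1 (plus strand, chr6:32844136-32859585). TAPBP, the gene of tapasin, lies at chr6:33299694-33314387 on the minus strand. The windows of these 4 genes are shown because TAP1 moved against TAP2 and TAPBP while PSMB9, its divergent neighbour, passed in no comparison (RefSeq, GRCh38.p14; TAP1 chr6:32853705-32853954, TAP2 chr6:32838740-32838989, TAPBP chr6:33314079-33314328, minus strand; PSMB9 chr6:32853942-32854191, plus strand). Capitals mark CCAAT, GAAANNGAAA and GGGANTTNCC on either strand.
TAP1: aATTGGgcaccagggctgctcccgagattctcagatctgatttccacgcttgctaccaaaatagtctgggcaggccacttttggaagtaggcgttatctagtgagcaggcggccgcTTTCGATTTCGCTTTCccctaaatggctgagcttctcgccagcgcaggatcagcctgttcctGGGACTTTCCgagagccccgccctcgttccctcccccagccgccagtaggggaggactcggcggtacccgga
TAP2: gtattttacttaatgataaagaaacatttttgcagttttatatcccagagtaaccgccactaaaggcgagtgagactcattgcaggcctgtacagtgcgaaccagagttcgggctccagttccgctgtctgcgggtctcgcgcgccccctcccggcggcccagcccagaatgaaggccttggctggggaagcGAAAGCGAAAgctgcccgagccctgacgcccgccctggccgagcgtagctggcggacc
TAPBP: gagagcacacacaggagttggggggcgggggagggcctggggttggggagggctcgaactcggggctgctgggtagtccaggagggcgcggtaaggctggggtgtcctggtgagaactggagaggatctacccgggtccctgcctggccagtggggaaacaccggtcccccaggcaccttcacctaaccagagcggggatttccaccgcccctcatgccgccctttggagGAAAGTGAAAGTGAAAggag
PSMB9: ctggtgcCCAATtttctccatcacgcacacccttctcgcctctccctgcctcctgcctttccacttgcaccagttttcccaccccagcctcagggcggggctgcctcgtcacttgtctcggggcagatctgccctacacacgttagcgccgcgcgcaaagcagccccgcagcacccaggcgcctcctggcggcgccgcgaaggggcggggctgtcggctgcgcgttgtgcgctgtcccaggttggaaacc
The core GAAANNGAAA stood in 3.02% of all windows. It was found in 2 overlapping copies in TAP1 and in TAPBP and in 1 copy in TAP2, so it was shared by the gene that rose and the genes that fell. TAP1 also matched GGGANTTNCC, as did 1.26% of all windows. The TAP1 and PSMB9 windows overlap, and the single CCAAT of each is the same 5 bases. RefSeq holds a second TAP1 start, whose window (chr6:32852762-32853011, not printed) had none of the motifs marked and 1 TTCNNNGAA. The B2M window, not printed, held 1 CCAAT, 2 overlapping GAAANNGAAA and 1 GGGANTTNCC. Of the 9 genes, 7 matched the RefSeq table; HLA-E and NLRC5 did not.

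TAP1 was at 31.7, 28.5 and 32.6 CPM in wild-type DMSO and at 40.5, 43.2 and 37.3 CPM in wild-type JQ1. It was at 35.9, 35.6 and 37.1 CPM in knockout DMSO and at 41.2, 40.3 and 44.4 CPM in knockout JQ1. JQ1 libraries lay above DMSO libraries in each genotype, and the knockout lay above wild type in DMSO but overlapped it under JQ1. The log2 fold change with JQ1 was 0.38 in wild type (SE 0.07, adjusted p 0.001), a rise of 30.3%, and 0.21 in knockout (SE 0.07, adjusted p 0.0351). The wild-type call held in 23 of 23 alternative analyses, from 0.25 to 0.44. The knockout call was lost in 10 of 23, among them the fits without knockout DMSO replicate 1, 2 or 3 (adjusted p 0.0832, 0.105 and 0.0508) and without knockout JQ1 replicate 1 or 3 (0.0501 and 0.0865). The knockout stood at 0.23 above wild type in DMSO (SE 0.07, adjusted p 0.0823), short of the threshold. It passed by DESeq2 (0.24, adjusted p 0.0362) and without knockout JQ1 replicate 3 (0.23, adjusted p 0.0361). Under JQ1 the difference was 0.06 (95% interval -0.10 to 0.21), or 0.0143 without that library.

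TAP2 was at 45.7, 40.8 and 45.7 CPM in wild-type DMSO and at 39.7, 38.0 and 31.3 CPM in wild-type JQ1. It was at 46.0, 45.5 and 47.9 CPM in knockout DMSO and at 37.0, 36.8 and 41.1 CPM in knockout JQ1. In both genotypes each drug library lay below each DMSO library, and the genotypes overlapped. TAP2 fell by 0.28 on the log2 scale in wild type (SE 0.09, adjusted p 0.0208) and by 0.28 in knockout (SE 0.09, adjusted p 0.0208). The wild-type call was lost when replicate 1 (adjusted p 0.0776) or 3 (0.0769) of wild-type DMSO or replicate 3 of wild-type JQ1 (0.102) was left out; in the last case the log2 fold change was -0.18. The knockout call was lost without replicate 3 of knockout DMSO (0.0695) or replicate 1 (0.067) or 2 (0.0736) of knockout JQ1. It held without knockout JQ1 replicate 3 (-0.33, adjusted p 0.00805). Both calls were also lost by edgeR with factors taken from the authors' normalized signal (adjusted p 0.163 in wild type, 0.0761 in knockout). The same held for limma on log2(signal + 1) (adjusted p 0.175 and 0.078). The annotation places AL669918.1, listed at 54.2 to 318.1 counts, over TAP2 on the same strand; with their counts summed, an alternative chosen after seeing the data, both falls stayed at -0.28 (adjusted p 0.0187 and 0.019). The knockout differed from wild type by 0.08 in DMSO (95% interval -0.11 to 0.26) and by 0.08 under JQ1 (-0.11 to 0.26), the latter 0.0229 without knockout JQ1 replicate 3.

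The ratio of TAP1 to TAP2 counts within a library, chosen after the fold changes were seen, puts the opposite movements together. It was 0.693, 0.698 and 0.713 in wild-type DMSO and 1.02, 1.14 and 1.19 in wild-type JQ1. In the knockout it was 0.782, 0.782 and 0.774 in DMSO and 1.11, 1.09 and 1.08 in JQ1. Every drug library lay above every DMSO library, and in DMSO the knockout lay above wild type. HLA-B to HLA-E rose in the same order as HLA-B itself, from 1.37 ± 0.06 in wild-type DMSO through 1.55 ± 0.04 in wild-type JQ1 and 1.58 ± 0.02 in knockout DMSO to 1.76 ± 0.03 in knockout JQ1 (SD, n = 3 each). With 3 libraries against 3, the two-sided exact permutation test cannot give less than 0.1, so these ratios are given without a test.

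**Figure D3:**
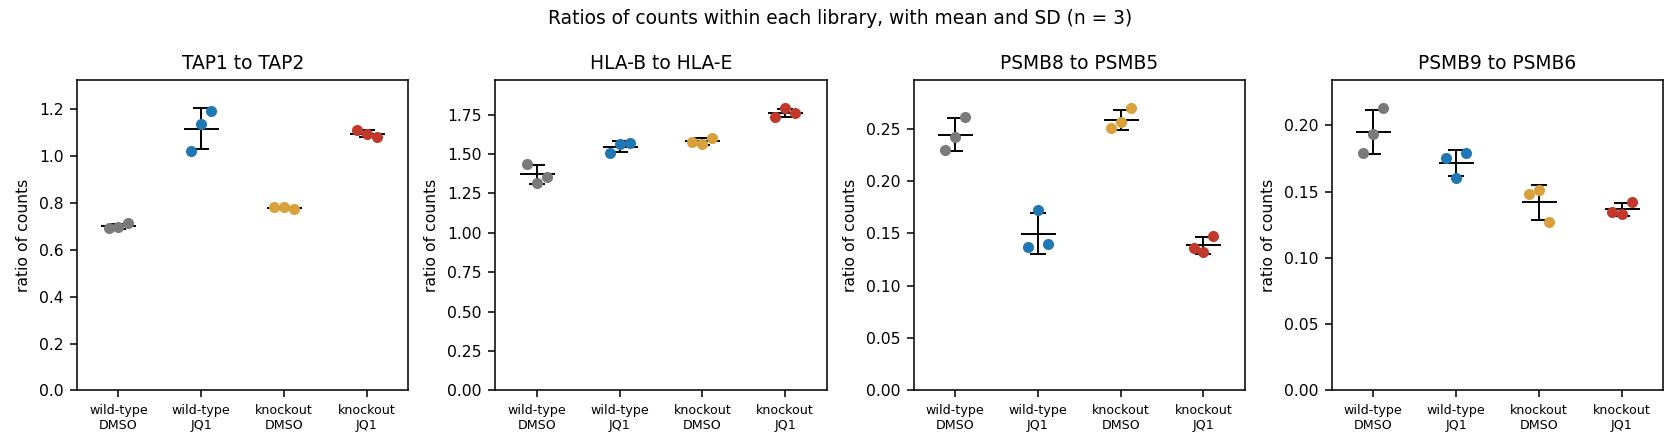
Ratio of the counts of 2 genes within each library (points, y axes) with mean and SD of 3 libraries, for the 4 groups. TAP1 to TAP2 moves from 0.693 to 0.713 in wild-type DMSO to 1.02 to 1.19 in wild-type JQ1, and PSMB8 to PSMB5 is lower in JQ1 than in DMSO in both genotypes.

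TAPBP was at 29.2, 30.7 and 30.0 CPM in wild-type DMSO and at 26.1, 23.9 and 20.8 CPM in wild-type JQ1. It was at 27.9, 34.6 and 35.2 CPM in knockout DMSO and at 25.9, 25.5 and 27.0 CPM in knockout JQ1. Drug libraries lay below DMSO libraries in each genotype, by a narrow margin in the knockout, where DMSO replicate 1 was low. TAPBP fell by 0.34 in wild type (SE 0.10, adjusted p 0.0121) and by 0.32 in knockout (SE 0.10, adjusted p 0.0187), changes of -21.2% and -19.6%. The wild-type call was lost without wild-type JQ1 replicate 3 (-0.26, adjusted p 0.0654). The knockout call was lost without replicate 2 (0.0731) or 3 (0.0852) of knockout DMSO or replicate 2 of knockout JQ1 (0.0586) and held without knockout JQ1 replicate 3 (-0.34, adjusted p 0.019). Between genotypes TAPBP differed by 0.12 in DMSO (95% interval -0.08 to 0.32) and 0.15 under JQ1 (-0.06 to 0.36), the latter 0.12 without knockout JQ1 replicate 3.

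PSMB9 was at 12.01, 12.6 and 14.8 CPM in wild-type DMSO and at 12.97, 11.8 and 12.7 CPM in wild-type JQ1. It was at 15.4, 15.9 and 13.7 CPM in knockout DMSO and at 14.2, 13.7 and 14.2 CPM in knockout JQ1. In the comparisons made the groups overlapped, except that knockout JQ1 lay above wild-type JQ1. With JQ1 the log2 fold change was -0.07 in wild type (95% interval -0.28 to 0.13) and -0.10 in knockout (-0.30 to 0.11). The knockout differed by 0.19 in DMSO (-0.01 to 0.39, adjusted p 0.287) and by 0.17 under JQ1 (-0.04 to 0.37, adjusted p 0.365). In the fit without knockout JQ1 replicate 3, the knockout response was -0.10 and the difference under JQ1 was 0.16. PSMB9 overlaps PSMB8 and TAP1 on the opposite strand, and whether the counting used the strand is not given in the sources used here.

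PSMB8 and PSMB10 encode the other immunoproteasome subunits, the counterparts of PSMB5 and PSMB7. PSMB8 was at 21.7 to 25.0 CPM in wild-type DMSO and at 12.3 to 15.8 CPM in wild-type JQ1. It was at 26.3 to 28.2 CPM in knockout DMSO and at 13.6 to 14.8 CPM in knockout JQ1. It fell with JQ1 by 0.76 in wild type (SE 0.10, adjusted p 3.29e-05) and by 0.92 in knockout (SE 0.10, adjusted p 4.74e-06), whereas PSMB9 beside it did not pass. PSMB10 stood at 0.13 in wild type (adjusted p 0.503) and fell by 0.49 in knockout (SE 0.14, adjusted p 0.0124), a call lost without knockout JQ1 replicate 2 (adjusted p 0.0581). The difference of its JQ1 responses did not pass (-0.62, SE 0.19, adjusted p 0.354). PSMB6, the constitutive counterpart of PSMB9 (GRCh38, chr17:4796144-4798503), was at 65.0 to 69.4 CPM in wild-type DMSO and 104 to 108 CPM in knockout DMSO. It was at 70.8 to 73.9 CPM in wild-type JQ1 and 99.6 to 105 CPM in knockout JQ1. The knockout was higher by 0.65 in DMSO (SE 0.05, adjusted p 1.4e-06) and by 0.50 under JQ1 (SE 0.05, adjusted p 1.87e-05). The ratio of PSMB9 to PSMB6 counts was therefore 0.179 to 0.213 in wild-type DMSO and 0.127 to 0.151 in knockout DMSO, without overlap.

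NLRC5, a member of the NLR family that acts as the class I transactivator, lies at chr16:56989485-57083531 on the plus strand and was the lowest of the 9 genes. It was at 4.95, 5.70 and 5.30 CPM in wild-type DMSO and at 5.28, 5.34 and 3.90 CPM in wild-type JQ1. Knockout libraries were at 4.49, 5.29 and 3.48 CPM in DMSO and at 2.70, 3.00 and 5.13 CPM in JQ1, on 71 to 193 counts over all libraries. The groups overlapped in every comparison, and knockout JQ1 replicate 3 lay well above its replicates. The log2 fold change with JQ1 was -0.14 in wild type (95% interval -0.59 to 0.32, adjusted p 0.669) and -0.28 in knockout (-0.75 to 0.20, adjusted p 0.38). The knockout differed by -0.27 in DMSO (-0.72 to 0.19, adjusted p 0.567) and by -0.40 under JQ1 (-0.88 to 0.07, adjusted p 0.335). Without knockout JQ1 replicate 3, NLRC5 passed as lower in knockout JQ1 cells, both against knockout DMSO (-0.63, adjusted p 0.02) and against wild-type JQ1 (-0.76, adjusted p 0.0192). That single library decided both calls.

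**Figure D4:**
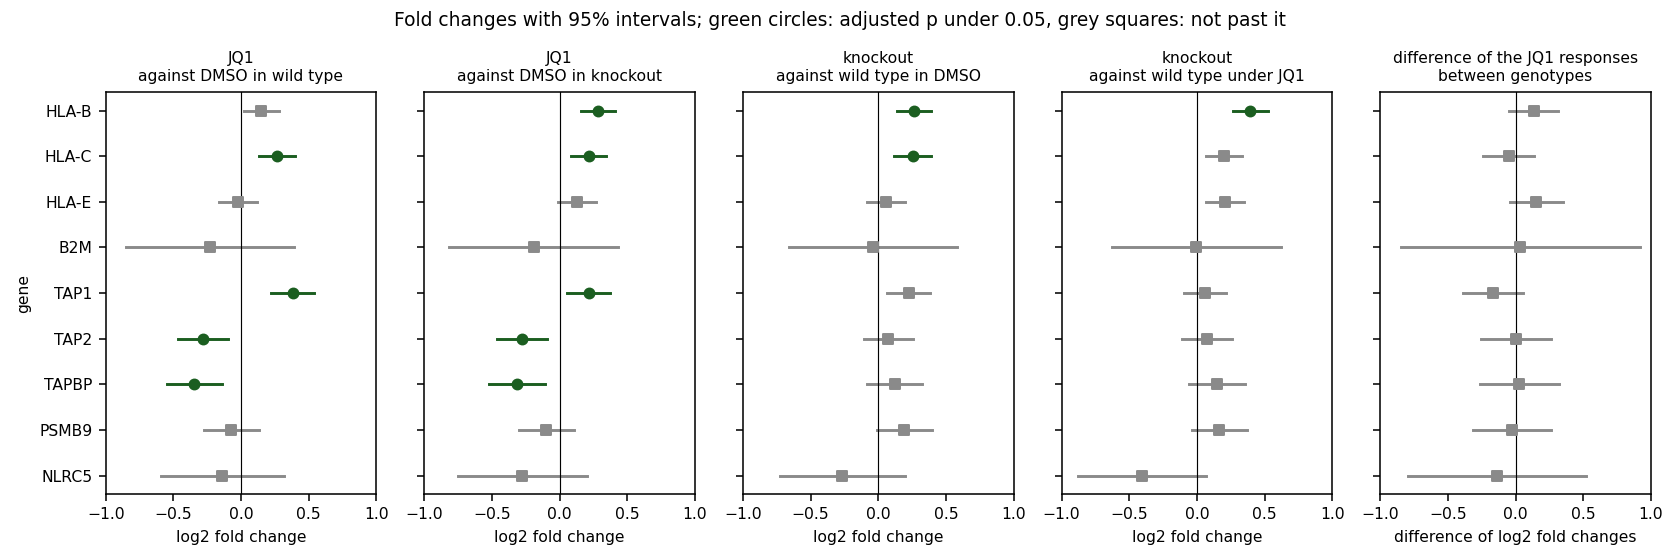
Log2 fold changes (x axes) of the 9 genes (y axis) in the 4 comparisons between groups and the difference of the JQ1 responses, with 95% intervals; green circles passed an adjusted p of 0.05 and grey squares did not. HLA-C and TAP1 lie right of 0 and TAP2 and TAPBP left of 0 in both JQ1 panels, and every interval in the last panel includes 0.

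An interaction term tested whether JQ1 acted differently in the genotypes. By edgeR, 0 of the 9 genes passed, 0 had an unadjusted p under 0.05, and DESeq2 called 0; of all tested genes 0.134% passed, 0.0323% upward and 0.101% downward. The response of HLA-B was larger in the knockout by 0.13 (95% interval -0.05 to 0.31, adjusted p 0.701) and that of HLA-E by 0.15 (-0.04 to 0.35, adjusted p 0.684). The TAP1 response was smaller in the knockout, with a difference of -0.17 (-0.39 to 0.05, adjusted p 0.696). HLA-C differed by -0.05 (-0.24 to 0.14), TAP2 by 0.00252 (-0.26 to 0.26), TAPBP by 0.03 (-0.26 to 0.32) and PSMB9 by -0.03 (-0.31 to 0.26). For B2M (-0.85 to 0.92) and NLRC5 (-0.80 to 0.52) the intervals were wide. With knockout JQ1 replicate 3 left out, the differences for HLA-B and HLA-E were 0.0693 and 0.0893, those for HLA-C and TAP1 were -0.0769 and -0.21, those for TAP2 and TAPBP were -0.0518 and 0.00423, and those for PSMB9, B2M and NLRC5 were -0.0334, 0.36 and -0.49; none passed. With 3 libraries a group, any difference of responses inside a gene's 95% interval remains compatible with these data. The smallest difference that the test could detect was not worked out. Of the genes called under JQ1, 4 of the 9 were called in both genotypes in the same direction, beside 25.2% of all tested genes. The 2 comparisons share no library but come from 1 fit with a shared estimate of spread per gene, so their calls are not independent.

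Levels were compared between genes per kilobase of the APPRIS principal transcript (GENCODE release 29). Where a gene had several, the longest was used, which for B2M was 1705 bases out of 3 principal transcripts. A shorter one would raise the B2M value, so the order of B2M and HLA-B may depend on that choice. In wild-type DMSO HLA-B led with 77.6 ± 2.79 CPM per kilobase, followed by B2M with 51.5 ± 12.8, HLA-E with 33.7 ± 2.09 and HLA-C with 29.1 ± 0.209 (SD, n = 3 each). TAP2 (17.7 ± 1.13), PSMB9 (16.8 ± 1.86) and TAPBP (15.9 ± 0.386) followed; PSMB9 overlapped both of its neighbours in this order, and TAP2 lay above TAPBP. TAP1 was lower at 10.4 ± 0.723 and NLRC5 lowest at 0.780 ± 0.0552. In knockout JQ1 the order at the top was HLA-B at 113 ± 8.50, B2M at 44.0 ± 21.8, HLA-C at 40.3 ± 1.86 and HLA-E at 38.3 ± 2.92, and the ranges of B2M, HLA-C and HLA-E overlapped. There PSMB9 (17.9 ± 0.373), TAP2 (15.3 ± 0.972), TAP1 (14.2 ± 0.734) and TAPBP (13.9 ± 0.415) came next, and TAP1 overlapped both TAP2 and TAPBP. NLRC5 was at 0.529 ± 0.194. Over knockout JQ1 replicates 1 and 2 alone the means were 108.5 for HLA-B, 54.9 for B2M, 39.6 for HLA-C, 36.6 for HLA-E and 0.418 for NLRC5. The length of the transcripts present in these cells was not measured, so the order rests on the annotated ones.

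The rest of the pathway was described by a list of 59 genes in 5 groups, of which 56 were tested; HLA-G, FCGRT and MARCH4 had too few counts. JQ1 raised 19 and lowered 8 of the 56 in wild type and raised 16 and lowered 11 in knockout, beside 16.9% and 16.2% of all tested genes in wild type and 16.7% and 17.8% in knockout. Without knockout JQ1 replicate 3 the counts were 24 and 9 in wild type (19.6% and 18.4% of all tested genes) and 21 and 11 in knockout (16.2% and 17.4%). The median log2 fold changes were 0.11 and 0.04, beside -0.03 and -0.00353 over all tested genes, and those of the 9 genes were -0.07 and -0.10. Called in both genotypes were 23 of the 56, 16 higher and 7 lower, beside 25.2% of all tested genes, and none was called in opposite directions. The interaction called 0 of the 56 by edgeR, with 2 at an unadjusted p under 0.05, PSMB10 and the peptidase gene NRDC, beside 8.37% of all tested genes.

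**Figure D5:**
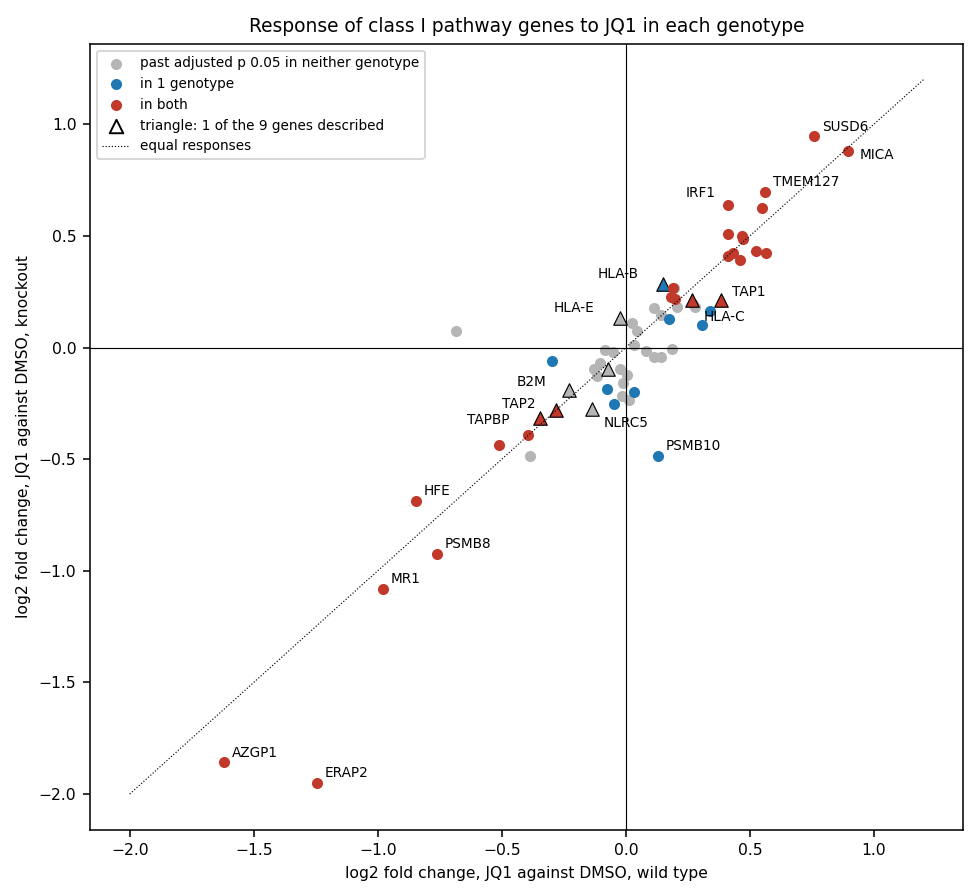
Log2 fold change with JQ1 in wild type (x axis) against that in knockout (y axis) for the 56 tested genes of the pathway list (circles) and the 9 genes described (triangles), coloured by whether they passed in both genotypes, 1 or neither. MICA and SUSD6 lie at the upper right and AZGP1, ERAP2 and MR1 at the lower left; the dotted line marks equal responses, and PSMB10 (0.13 against -0.49) and ERAP2 (-1.25 against -1.95) lie below it.

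Among the other heavy chains and class I-like molecules, 2 of 8 tested genes rose and 3 fell with JQ1 in each genotype. Of all tested genes, 16.9% were higher and 16.2% lower in wild type, and 16.7% and 17.8% in knockout. Without knockout JQ1 replicate 3, 3 rose and 3 fell in wild type, beside 19.6% and 18.4% of all tested genes. MICA, a stress-induced ligand of the NKG2D receptor, rose from 6.91 ± 0.313 to 12.9 ± 0.893 CPM in wild type (SD over 3 libraries), by 0.89 on the log2 scale (SE 0.10, adjusted p 5.92e-06), and by 0.88 in knockout. MR1, which presents microbial vitamin B metabolites, fell from 12.2 ± 0.905 to 6.17 ± 0.146 CPM in wild type (-0.98, SE 0.10, adjusted p 3.78e-06) and by 1.08 in knockout. HFE, the hemochromatosis protein that acts in iron sensing, fell by 0.84 in wild type (SE 0.15, adjusted p 0.000452) and by 0.69 in knockout (adjusted p 0.00246). AZGP1, a secreted class I-like protein, went from 12.3 ± 0.213 to 4.02 ± 0.402 CPM in wild type and from 7.83 ± 0.71 to 2.14 ± 0.316 CPM in knockout, the largest falls of the list in wild type.

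Peptide supply was mixed. Of 14 genes, 4 rose and 3 fell in wild type, beside 16.9% and 16.2% of all tested genes. In knockout 3 rose and 6 fell, beside 16.7% and 17.8%. Without knockout JQ1 replicate 3 the counts were 4 and 3 in wild type (19.6% and 18.4% of all tested genes). They were 4 and 5 in knockout (16.2% and 17.4%). PSMB8 fell in both, as did the aminopeptidases ERAP1 (-0.40 and -0.39) and ERAP2, which trim peptides in the endoplasmic reticulum, while the proteasome activator gene PSME1 rose (0.41 and 0.41); ERAP1, ERAP2 and PSME1 are named after their values were seen. Of 9 loading and folding genes 5 rose in each genotype and none fell, beside 16.9% of all tested genes higher and 16.2% lower in wild type and 16.7% and 17.8% in knockout; without knockout JQ1 replicate 3, 7 rose in wild type and 6 in knockout. They were the chaperones CALR (0.41 and 0.51), CANX (0.20 and 0.22) and HSPA5 (0.46 and 0.39), the glucosidase subunit GANAB (0.19 and 0.27) and the translocon subunit SEC61A1 (0.47 and 0.50), all named after their values were seen. These genes serve secretory proteins in general and not class I alone, and tapasin itself moved the other way.

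Of 19 regulators, 5 rose and 2 fell in wild type and 3 rose and 2 fell in knockout. Of all tested genes, 16.9% were higher and 16.2% lower in wild type, and 16.7% and 17.8% in knockout. Without knockout JQ1 replicate 3 the regulator counts were 7 and 3 in wild type and 6 and 2 in knockout. Beside these stood 19.6% and 18.4% of all tested genes in wild type and 16.2% and 17.4% in knockout. IRF1, an interferon-induced activator of class I genes, rose by 0.41 in wild type (SE 0.12, adjusted p 0.0187) and by 0.64 in knockout (SE 0.13, adjusted p 0.00118); the first of these calls was lost when replicate 1 of wild-type DMSO (adjusted p 0.0831) or of wild-type JQ1 (0.0833) was left out. The CCAAT-binding subunit NFYB, named after its values were seen, fell by 0.51 with JQ1 in wild-type cells and by 0.44 in knockout cells; of the other subunits, NFYA rose in wild type (0.31, adjusted p 0.00282) and stood at 0.10 in knockout, and NFYC stood at 0.18 and -0.00498, not called. With knockout JQ1 replicate 3 left out, NFYA passed in knockout too (0.17, adjusted p 0.0338), and NFYC stood at 0.0314 there, not called. Of 6 tested genes of surface turnover 3 rose in each genotype and none fell, against the same shares of all genes. SUSD6 (0.76 and 0.95) and TMEM127 (0.56 and 0.70) belong to a complex that sends class I molecules to degradation, whose ubiquitin ligase WWP2 stood at 0.00544 and -0.12 and was not called. In the fit without knockout JQ1 replicate 3, WWP2 was called lower in knockout (-0.27, adjusted p 0.0159), SUSD6 was at 0.83 and TMEM127 at 0.57. SYVN1 (0.43 and 0.43, the latter 0.26 without that library) encodes an endoplasmic reticulum ubiquitin ligase; WWP2 and SYVN1 are named after their values were seen.

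Between genotypes, in DMSO 7 of the 56 were higher and 1 lower, and under JQ1 6 were higher and 1 lower, against 7.92% and 8.57% of all tested genes called in either direction. Without knockout JQ1 replicate 3 these were 8 higher and 2 lower in DMSO (5.73% and 6.17% of all tested genes) and 7 higher and 2 lower under JQ1 (3.82% and 6.65%). PSMB6 had the largest rise in each treatment among the genes of the list that passed. IRF2, an interferon regulatory factor that binds class I promoters, was higher by 0.44 in DMSO (SE 0.06, adjusted p 0.000532) and by 0.32 under JQ1 (SE 0.06, adjusted p 0.0052). It went from 31.6 ± 1.32 to 42.7 ± 1.15 CPM in DMSO (SD, n = 3). RFXANK, a subunit of the RFX complex that binds these promoters, was higher by 0.43 in DMSO (SE 0.09, adjusted p 0.00509). PDIA3, the disulfide isomerase of the loading complex, was higher by 0.36 under JQ1 (SE 0.08, adjusted p 0.00727). In DMSO PDIA3 averaged 36.3 CPM in wild type and 47.5 in knockout. That difference was 0.39 in the edgeR fit without knockout JQ1 replicate 3 (adjusted p 0.00193). AZGP1 was lower in both treatments, at -0.66 in DMSO (SE 0.11, adjusted p 0.00163) and -0.89 under JQ1 (SE 0.14, edgeR adjusted p 0.000657). Under JQ1 it averaged below 5 CPM in both genotypes. IRF1 (-0.29 and -0.06) did not pass in either treatment. The PSMB6, IRF2, PDIA3 and AZGP1 calls under JQ1 held without knockout JQ1 replicate 3.

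The genes whose log2 CPM followed a class I gene most closely over the 12 libraries were sought among 11192 genes whose mean was 5 CPM or more, with the 9 genes and the pathway list left out. The libraries fall into 4 groups, so a high value mostly reflects shared group differences. For HLA-B they were B4GALT5 (Pearson's r 0.988), TUSC1 (0.985) and VGLL4 (0.978), and for TAP1 they were ERCC1 (0.977), DOLK (0.976) and EIF2B4 (0.974). B2M was matched by ERCC8 (0.907), ZBED5 (0.895) and PCNP (0.894), and NLRC5 by COL6A1 (0.925), PPP1R15A (0.9002) and HOXD8 (0.888). These values were picked as the highest of many and are a description only.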

How the data were processed

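The authors deposited estimated counts per gene symbol for 12 libraries, and a normalized signal per gene made by the authors. Per the submitters' processing notes, Trim Galore, cutadapt, FastQC, MultiQC, kallisto and DESeq2 were used with build GRCh38.p10. Per the labels' protocols, libraries were directional and made from RNA depleted of rRNA. How transcripts were summed to symbols is not given in the sources used here.

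Estimated counts were rounded to whole numbers. Genes passing edgeR's filterByExpr (21698) were scaled by TMM and fitted with edgeR 4.0.16 quasi-likelihood functions (limma 3.58.1, R 4.3.3) in 1 model with a term per group over all 12 libraries. Benjamini-Hochberg adjustment ran over all tested genes, and an adjusted p of 0.05 was the threshold. The SE of a log2 fold change was its size over the root of the F statistic, and fold changes use a prior count of 0.125. Depth ran from 25316899 to 34594295 estimated counts. The script was checked on simulated data. The normalized signal entered only alternative analyses, with limma on log2(signal + 1) or log2(signal + 0.5).

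The 9 genes and the lists were chosen with earlier results of these data known. Named beside them are HLA-F, PSMB8, PSMB10 and IRF1, and per comparison up to 3 pathway genes with the largest rise and 3 with the largest fall past the threshold at 5 CPM or more; others are named after their values were seen, and some genes of the list are not reported here. Alternatives were other scalings, filters, tools and thresholds, a replicate block, each library left out, and the summed heavy chains. Coordinates are from GENCODE release 29 (GRCh38), promoter windows from RefSeq (GRCh38.p14). The replicate numbers were not treated as pairs in the main fit. Only 2 of 12 libraries correlated best with a library of the same number in another group, a check that cannot exclude a pairing.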

Additional observations from a re-analysis of the deposited data

How the results depend on the processing

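Member counts depended on the setting in each comparison with calls. With JQ1 in wild type, 1 gene was higher with library totals only, 1 lower with the authors' factors or limma on their signal (both pseudocounts), and 0 lower at an adjusted p of 0.01; leaving out each library gave 0 to 2 lower. In knockout, 1 was higher with library totals only, no low-count filter, only the groups compared or an adjusted p of 0.01 (1 to 3 without single libraries), and 1 lower with the authors' factors or limma, 0 at 0.01 (0 to 3 without single libraries). The knockout in DMSO had 0 higher at 0.01 and 0 to 3 without single libraries; under JQ1 it had 3 higher with DESeq2 or with at least 1 CPM in 6 libraries, and 1 to 3 higher and 0 to 1 lower without single libraries. The interaction stayed at 0 of 9 in 22 alternatives. Library totals moved the median of all tested genes from -0.03 to -0.16 in wild type and from -0.00353 to -0.12 in knockout; HLA-C then stood at 0.14 and 0.10 and TAP1 at 0.25 and 0.10. With the replicate block the counts stayed at 2 higher and 2 lower in wild type; TAP1 in knockout lost its call (0.21, adjusted p 0.0553), and 2 of 12 libraries correlated best with their own number.

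Values near 0 changed sign. With JQ1 in wild type the heavy-chain sum was 0.27, opposite in sign to HLA-E, which ran from -0.0691 to 0.0172 without single libraries; HLA-F was -0.12 with library totals only, -0.0153 with at least 1 CPM in 6 libraries, -0.0019 with the replicate block and -0.15 to 0.21 without single libraries. Without single libraries PSMB9 ran from -0.13 to 0.0267 and NLRC5 from -0.21 to 0.0019 in wild type, and B2M from -0.60 to 0.14 in knockout. For the knockout in DMSO, B2M ran from -0.27 to 0.12 and HLA-F from -0.11 to 0.17 without single libraries, library totals gave HLA-F -0.0184, and TAP2 summed with AL669918.1 gave -0.0134, and -0.0111 under JQ1. Under JQ1 B2M was 0.0038 with RLE factors, 0.00799 with at least 1 CPM, 0.00200 with only the groups compared, 0.0230 with the authors' factors, 0.0067 with DESeq2 and -0.42 to 0.32 without single libraries, and TAP2 ran from -0.0202 to 0.15. The interaction of the heavy-chain sum was 0.0842, or 0.0208 without knockout JQ1 replicate 3, opposite in sign to that of HLA-C. Interaction values that turned were B2M (-0.11 by limma at both pseudocounts; -0.38 to 0.36), TAP2 (-0.0062 with RLE, -0.0153 unfiltered, -0.0578 with the authors' factors, -0.00596 with DESeq2, -0.0608 by limma at both; -0.10 to 0.0704), TAPBP (-0.0393 with the authors' factors, -0.0288 by limma at both; -0.0744 to 0.11), PSMB9 (-0.12 to 0.0313) and NLRC5 (-0.49 to 0.0330), the ranges being without single libraries. The cause was not tested. Over all tested genes, the number called ranged in the knockout in DMSO from 361 to 1311 higher and 565 to 1374 lower, under JQ1 from 280 to 850 and 642 to 1508, and in the interaction from 1 to 85 and 5 to 151; with JQ1 it ranged from 2298 to 4763 higher and 2247 to 5368 lower in wild type.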

Other observations

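ERAP2, an aminopeptidase of the endoplasmic reticulum whose level is known to vary between people by genotype, was below 5 CPM and is described here after its values were seen. It was at 2.92, 2.62 and 3.19 CPM in wild-type DMSO and at 1.73, 0.965 and 0.976 CPM in wild-type JQ1. In the knockout it was at 2.92, 2.23 and 2.53 CPM in DMSO and at 0.495, 0.527 and 0.918 CPM in JQ1. Drug and DMSO libraries did not overlap in either genotype. By edgeR it fell by 1.25 in wild type (adjusted p 0.00105) and by 1.95 in knockout (adjusted p 5.59e-05).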
